A study of Mus musculus with 2 samples.

Results

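The locus described here is the neighbouring pair of type IV collagen genes Col4a1 and Col4a2 on mouse chromosome 8, seen through the binding of the transcription factor Ebf1 in fat cells. Its members are the Ebf1 peaks whose centres lay in chr8:11150001-11480000 (mm9), a window of 330 kb that holds both genes with a flank on either side. The peaks were chosen by position, and the window itself was selected on the peaks of this same list, so its peak count and scores are a description and carry no test. It held 43 of the 34534 peaks in all. Binding had been mapped by chromatin immunoprecipitation and sequencing in mature 3T3-L1 adipocytes, which are cells of a mouse fibroblast line turned into fat-storing cells by the hormonal mixture MDI. Cells were fixed with 1% formaldehyde 10 days after that mixture was given. The labels name 2 libraries, an Ebf1 precipitation and a whole cell extract made without antibody. The peaks come from the 1 Ebf1 library, no values of the extract were analysed here, and no value below has a replicate error. The line has no separate animals or donors, and nothing in a peak list checks the cell type by its markers.

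Type IV collagen is the network-forming collagen of basement membranes, the thin sheets that surround each fat cell and underlie blood vessels. Col4a1 encodes the alpha-1 chain and Col4a2 the alpha-2 chain, which assemble together into the most widespread form of the triple helix. The genes lie head to head and are transcribed away from each other from a shared promoter region. Ebf1, a helix-loop-helix transcription factor, is needed to make B cells and promotes the formation of fat cells. It is known to bind as a dimer to palindromic sites built around CCCNNGGG, with a T before and an A after.

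The shared promoter region is shown first, because the results below are laid out around it. Sequences are those of RefSeq for GRCm38.p6, a later build than the mm9 of the peaks, and their positions were neither converted nor set against those of the peaks. Both genes matched 1 promoter in that table, each running from 250 bases before the start to 50 after it. As reverse complements the promoters overlapped by 78 bases, so that the first 22 transcribed bases of each gene lay opposite those of the other. The stretch of the Col4a1 promoter outside the overlap (chr8:11312855-11313076, minus strand, bases -250 to -29 from the Col4a1 start) and the short stretches around other motif matches are written 5′ to 3′. Capitals mark the matched letters.
Col4a1 promoter outside the overlap, CCAAT on the other strand: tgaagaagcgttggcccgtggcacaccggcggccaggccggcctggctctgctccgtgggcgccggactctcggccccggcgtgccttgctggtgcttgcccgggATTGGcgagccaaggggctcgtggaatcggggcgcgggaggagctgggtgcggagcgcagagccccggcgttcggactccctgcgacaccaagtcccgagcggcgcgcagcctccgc
GC box in the overlap, minus strand, chr8:11312800-11312829: cccttggagacgCCGCCCgcgcactgccga
CCAAT in the Col4a2 promoter, plus strand, chr8:11312761-11312789: ccgaggagctccCCAATttgttggcgctg
CCCNNGGG in the Col4a2 promoter, plus strand, chr8:11312648-11312677: gcagcccagttCCCGTGGGccacggcgagg

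Neither promoter held the Ebf motif of 10 letters, which is CCCNNGGG with the T before it and the A after it and was found in 0.904% of the 32851 RefSeq promoters of 300 bases. All motifs were searched on both strands. CCCNNGGG alone, the inner 8 letters of that motif, was matched 1 time in the Col4a2 promoter and not in that of Col4a1, and 13.7% of all promoters held it. Both promoters held CCAAT, the letters known to bind the factor NF-Y, as did 37.4% of promoters. Both also held GGGCGG, the GC box known to bind Sp1, which occurred in 35.7% of promoters. One of these GC boxes lay in the overlap and so belonged to both genes, and the Col4a2 promoter held 3 in all. TATAAA was in neither, and 13.6% of promoters held it. The promoters were rich in G and C, at 74.0% for Col4a1 and 73.7% for Col4a2, against a median of 52.7% over all promoters. The motif shares above are over all promoters and were not computed for those as rich in G and C. A match is a description of these letters and not a site of binding.

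Of the 43 peaks, 42 lay within the collagen genes as placed here, and 1 lay in the flanks of the window. The genes are taken to run from about 11.198 to 11.313 Mb (Col4a1) and from about 11.313 to 11.449 Mb (Col4a2), and the point between them is called the shared start. These ends came with the rule, were rounded to 1 kb, and were not checked against an mm9 annotation. Col4a1 held 21 peaks over 115 kb and Col4a2 held 21 over 136 kb, or 1.83 and 1.54 peaks per 10 kb. The flank of 48 kb beyond the end of Col4a1 held 1 peak and the flank of 31 kb beyond Col4a2 held none. The last peak of Col4a2 was centred 105.0 kb from the shared start, and the rest of the gene, to its end at 136 kb, held none. Moving the shared start by 1 kb to either side moved no peak from one gene to the other. This held only narrowly on the Col4a2 side. There the moved start fell inside the first peak of Col4a2, whose centre was 11314000.5. Which exon or intron a peak lay in was not analysed here.

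Each peak carries a deposited score, a whole number whose meaning no source gives, and which is not read as a count of reads. Scores in the window ran from 6 to 149, with a median of 16 and quartiles of 9 and 32.5. Over the whole list the median was 13, with quartiles of 8 and 26 and a highest score of 597. A peak is called strong below when its score was 55 or more, the 90th percentile of the list. By this rule 7 of the 43 peaks were strong, or 16.3% (exact Clopper-Pearson 95% interval 6.81 to 30.7, for counting error only), where 10.2% of the whole list was strong. Because the window was selected on these peaks, nothing is read from that share. The weakest of the strong peaks scored 60 and the next 71, and the peaks just under the threshold scored 49 and 47.

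**Figure D1:**
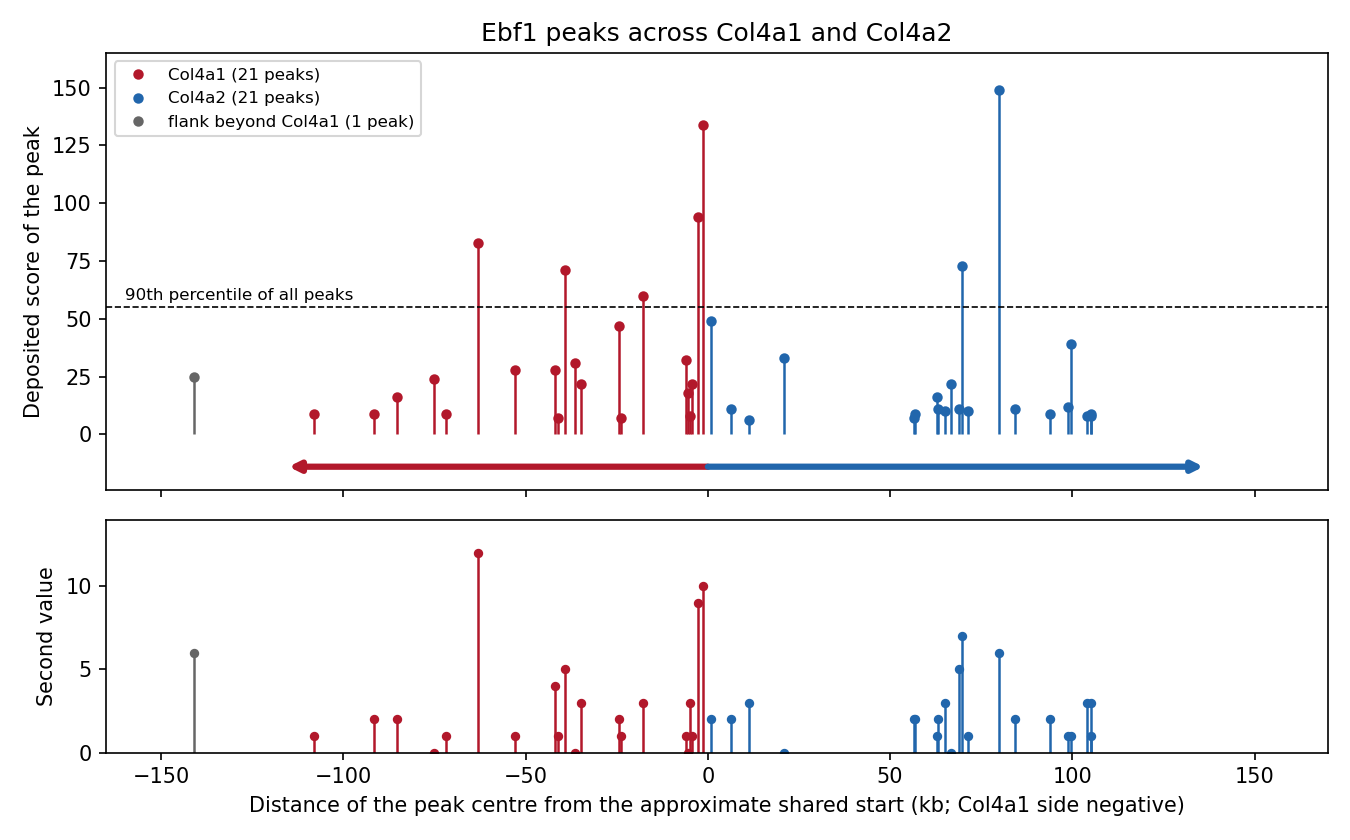
Ebf1 peaks across Col4a1 and Col4a2. Each stem is 1 peak, placed by the distance of its centre from the approximate shared start in kb (Col4a1 side negative), with its deposited score above and its second deposited value below; arrows mark the approximate genes and point the way they are transcribed, and the dashed line is the score of 55. Of the 7 strong peaks, 5 lie on the Col4a1 side and 2 on the Col4a2 side, and a stretch without peaks separates the near and far groups of Col4a2.

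Around the shared start, a pair of strong peaks sat just inside Col4a1. The nearer, from 11311351 to 11312100, scored 134, which only 1.70% of the list reached, and its centre lay 1.27 kb from the shared start. The next, from 11309976 to 11310775, scored 94 at 2.62 kb. In the window only 1 peak scored higher than this pair. Col4a2 began with a peak from 11313776 to 11314225 that scored 49, below the threshold for strong, at 1.0 kb. No peak was listed between them, from 11312101 to 11313775, a stretch of 1675 bp that contains the shared start as placed here. Its edges lay 900 bp from that point on the Col4a1 side and 776 bp on the Col4a2 side, which is more than rounding to the nearest kb can move it. Whether that point holds in mm9 was not checked. Within 5 kb of the shared start were 5 peaks, which together carried 23.7% of the summed score of the window.

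Col4a1 carried the larger part of the score. Behind the strong pair, 4 weaker peaks lay between 4.31 and 6.10 kb from the shared start, with scores of 22, 8, 18 and 32 from the nearest outward. The next strong peak, from 11294701 to 11295450, scored 60 at 17.9 kb. Farther in, the peak from 11273651 to 11274150 scored 71 at 39.1 kb, and it stood in a run of 5 peaks between 34.9 and 42.0 kb whose other members scored 22, 31, 7 and 28. The peak from 11249501 to 11250250 scored 83 at 63.1 kb and was the strong peak farthest from the shared start on this side. Toward the end of the gene the peaks were few and weak, with scores of 16, 9 and 9 at 85.2, 91.6 and 108 kb. The first 25 kb of Col4a1 held 9 peaks, of which 3 were strong, the 25 kb after that held 5 and the following 25 kb held 4, each with 1 strong peak.

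Col4a2 was unevenly filled. Its first 25 kb held 4 peaks, with scores of 49, 11, 6 and 33 from the shared start outward. Then came 35.2 kb with no peak, from the end of a peak at 11334150 to the start of the next at 11369401. This was the longest empty stretch between neighbouring peaks of the window. The remaining 17 peaks of the gene all lay between 56.5 and 105.0 kb from the shared start. Among them was the strongest peak of the window, from 11392526 to 11393125, which scored 149 at 79.8 kb and was matched or exceeded by 1.27% of the list. It stood with no other peak centre within 4 kb, the nearest lying 4450 bp away. The other strong peak of Col4a2, from 11382501 to 11383125, scored 73 at 69.8 kb, and its neighbours on either side scored 11 and 10. Of the other 15 peaks of this far group, 1 scored 39 and 1 scored 22, and the rest scored between 7 and 16.

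The collagen genes thus held equal numbers of peaks with different scores. The median score was 24 in Col4a1 and 11 in Col4a2, and 6 of 21 peaks in Col4a1 but 14 of 21 in Col4a2 scored below the median of the whole list. In Col4a1 13 of 21 peaks scored 20 or more, and in Col4a2 6 of 21 did. Over the whole list 30.4% of peaks scored 22 or more and 36.9% scored 18 or more. The cut at 20 was not planned, and nothing is read from these counts. Col4a1 carried 58.5% of the summed score of the window and Col4a2 39.6%, and the rest lay in the flank. The strong pair at 1.27 and 2.62 kb from the shared start, counted wholly to Col4a1, made up 30.0% of that gene's score. Per 10 kb the summed score was 66.0 in Col4a1 and 37.7 in Col4a2. Peaks of one library are not replicates, so this difference was not tested. The score also lay at different depths in the genes: 55.6% of that of Col4a1 fell within 25 kb of the shared start, against 19.3% of that of Col4a2. From the shared start outward, 50% of the summed score was reached at 24.4 kb in Col4a1 and at 69.8 kb in Col4a2. These depths hang on few peaks. Col4a1 had already reached 48.5% at 17.9 kb, and Col4a2 rose from 36.1% at 68.9 kb to 81.3% at 79.8 kb. The genes also differ in length, at 115 and 136 kb.

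**Figure D2:**
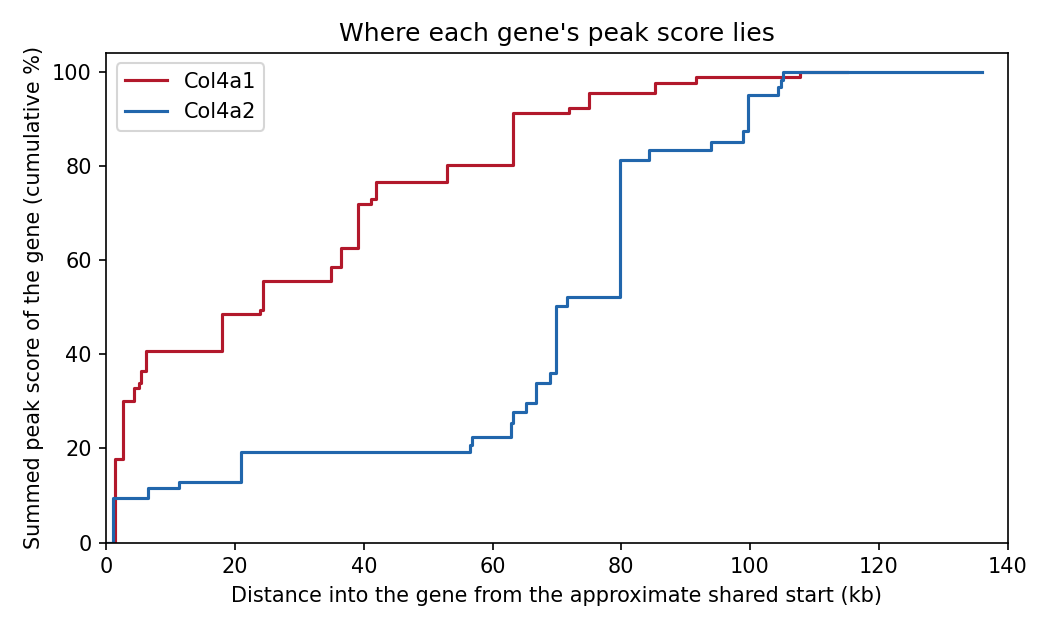
Summed peak score of each gene, as a cumulative percentage, against the distance into the gene from the approximate shared start in kb. Each step is 1 peak; Col4a1 has 55.6% of its score within 25 kb and Col4a2 has 19.3%, and the largest step of Col4a2 is the peak with a score of 149 at 79.8 kb.

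Spacing follows from the number of peaks for which the window was picked, so it is given as a description. The median distance between neighbouring centres was 2.89 kb in the window and 21.8 kb over the whole list. Of the 43 peaks, 41 (95.3%) had another centre within 12.5 kb, as did 56.2% of the list, and nothing is read from that difference. Joining centres within that distance gave 2 clusters and 2 single peaks. The larger cluster held 24 peaks over 113 kb, from 11221326 to 11334150, and so ran across the shared start through most of Col4a1 and into the first part of Col4a2. It included 5 strong peaks and had a summed score of 849, which with its own counted was reached by 5 clusters of the list. The other held the 17 far peaks of Col4a2 over 48.9 kb, from 11369401 to 11418250, with 2 strong peaks and a summed score of 414. The closest neighbours were 50 bp apart, once in each gene: the peak from 11288351 to 11288925, with a score of 47, beside 1 with a score of 7, and a weak pair with scores of 7 and 9 that began at 11369401. The size of the larger cluster depended on the joining distance, and with centres joined within 5 kb the largest held 7 peaks.

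Widths followed the scores, and the widest peaks lay toward the Col4a1 side. Peaks in the window were 200 to 800 bp wide with a median of 325 bp, against 300 bp in the whole list. The median was 375 bp in Col4a1 and 250 bp in Col4a2. All 4 peaks of 750 bp or more lay in Col4a1. The cut at 750 bp was not planned and the share of the list that wide was not computed, so nothing is read from this count. Since wider peaks mostly score higher in the list, although the medians level off and vary above about 700 bp, each peak was also set beside the median score of all peaks of its own width. By this measure 27 of the 43 scored above, 3 equal and 13 below, and each gene had 13 of 21 above. The share of the whole list above the median of its width was not computed, so nothing is read from these counts. The strongest peak, in Col4a2, scored 149 at a width of 600 bp, where the median of 495 peaks was 71. The strong peak next to the shared start scored 134 at 750 bp, where the median of 154 peaks was 98. Of the strong peaks 4 scored below the median of their width, among them the peak with a score of 94 at 800 bp (median 117) and those of 83 and 60 at 750 bp.

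**Figure D3:**
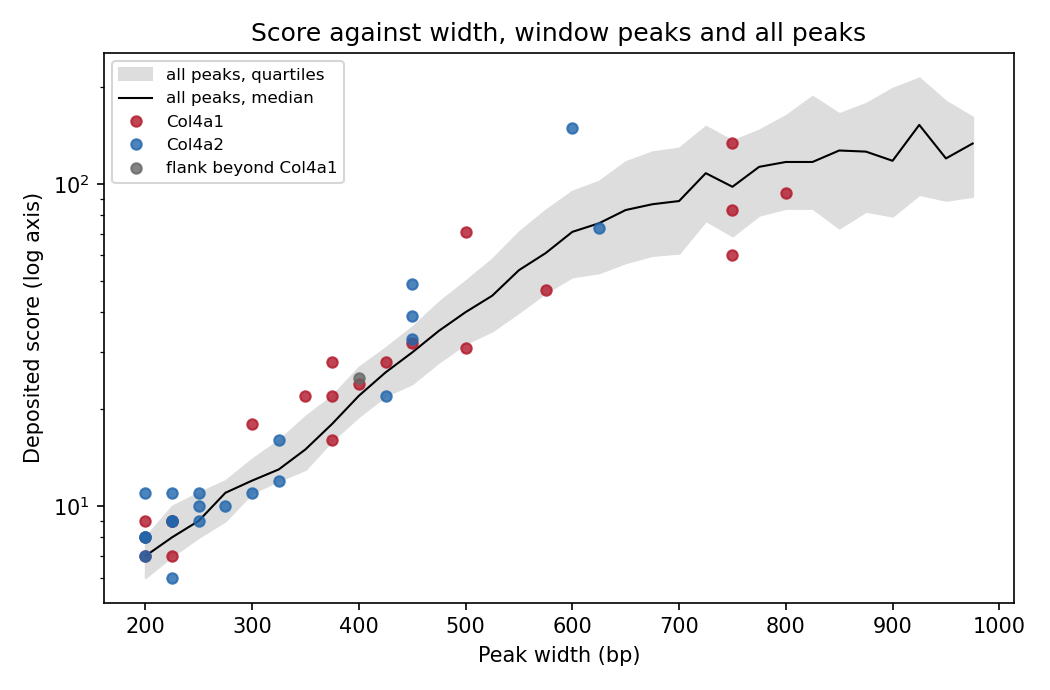
Deposited score (log axis) against peak width in bp. Points are the 43 peaks of the window, coloured by gene; the black line and grey band are the median and quartiles of all 34534 peaks at each width. The peak with a score of 149 at 600 bp lies well above the band, and the peaks with scores of 83 and 60 at 750 bp lie under the median line.

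A second deposited whole number, here the second value, ranged from 0 to 12 in the window and from 0 to 15 in the list. What it measures is not stated in the sources used here. Its median was 2 in the window and 1 in the list. It was 0 at 5 of the 43 peaks (11.6%, exact interval 3.89 to 25.1), and at 29.8% of the list. It was 5 or more at 8 of the 43 (18.6%, exact interval 8.39 to 33.4), and at 5.47% of the list. Of these 8 peaks 6 were strong. Both intervals are for counting error only. Because the window was selected on its peaks, nothing is read from either share. The second value was 12 at the peak with a score of 83, 10 and 9 at the pair beside the shared start, 7 and 6 at the strong peaks of Col4a2, 5 at the peak with a score of 71 and 3 at the one with a score of 60. Its median over the 7 strong peaks was 7, over all 3515 strong peaks of the list it was 3, and over the 3 strong peaks of the equal window before this one it was also 7, with a highest value of 13. Among peaks of the same width, 6 of the 7 strong peaks were above the median second value and the other, at 3, was below. The same share over all 3515 strong peaks was not computed, so nothing is read from this count. The single flank peak, from 11171801 to 11172200, had a score of 25 and a second value of 6. Whether the second value bears on the scores of these peaks was not tested.

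The window was then set among windows of the same length laid end to end over chromosomes 1 to 19 and X. The grid was laid in register with this window, which was thus held whole, while other dense places may be cut by an edge. Of 7817 windows, 10 held 43 peaks or more, this one included, and the median window held 2. On a second grid, shifted against the first, 11 windows or 0.141% held 43 peaks or more. At least 7 strong peaks were found in 9 windows, and a summed score of 1297 or more in 4. At least 43 peaks and at least 7 strong peaks occurred together in 2 of the windows, this one included, but both cuts are this window's own values. The other, on chromosome 8 from 71.21 to 71.54 Mb, held 55 peaks, of which 9 or 16.4% were strong. The remaining 8 windows with 43 peaks or more lay on chromosomes 2, 4 and X, and 7 of them had no strong peak while 1 on chromosome 2 had 1. The other windows with 7 or more strong peaks held fewer peaks, from 20 to 29, and 24.1 to 35.0% of those were strong. On chromosome 8 alone, 6 of 391 windows held at least 7 strong peaks, and the highest number was 10, from 119.72 to 120.05 Mb. These places in the order describe a window that was picked with its peaks known, so no p is given.

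**Figure D4:**
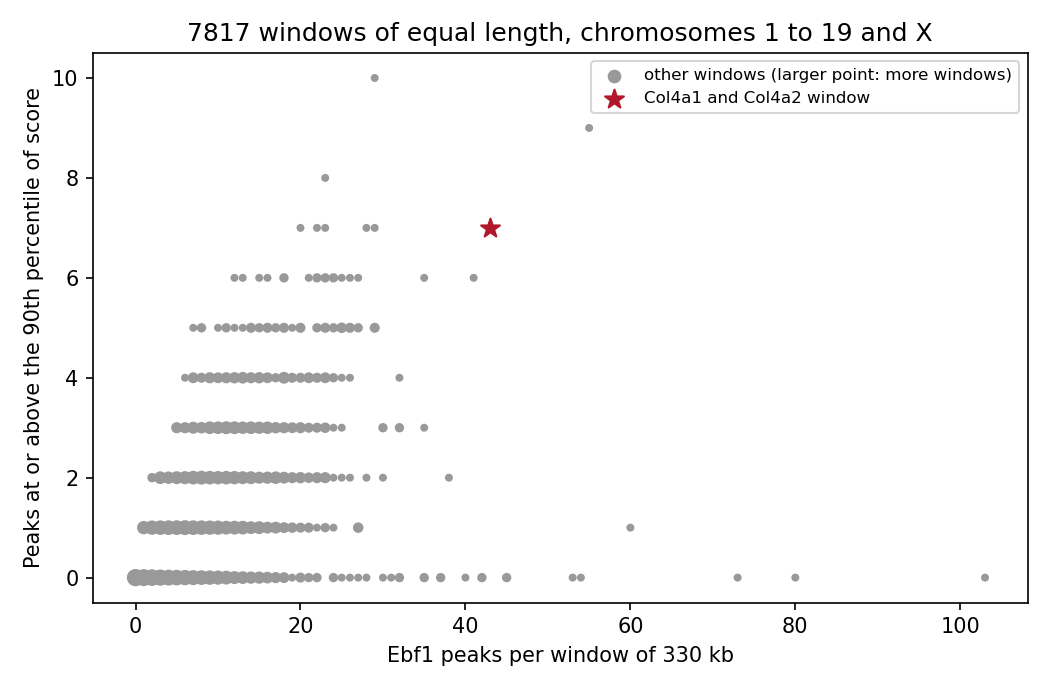
Strong peaks (score of 55 or more) against all Ebf1 peaks in 7817 windows of 330 kb. The star is the window with Col4a1 and Col4a2, with 43 peaks of which 7 are strong; grey points are other windows, larger where more windows share a place, and most windows with more peaks have no strong peak.

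Both adjoining windows held fewer peaks. The equal window before it held 23 peaks, 3 of them strong with scores from 58 to 139, and the window after it held 8, none strong and none above 36. The last peak before the window scored 9 and lay 56.2 kb from its edge, and the first inside it lay 22.0 kb from that edge. On the other side, the last 61.9 kb of the window had no peak centre, and the first peak after it, with a score of 36, lay 2.59 kb beyond the edge. In the GRCm38 gene table the nearest protein-coding neighbours of the pair were Irs2, which encodes an adaptor of the insulin receptor, on the Col4a1 side, and Rab20, a small GTPase, and Naxd, an enzyme that repairs hydrated NAD(P)H, on the Col4a2 side. Of the 3 nearest genes on each side in that table, the others were the long noncoding RNA genes 9530052E02Rik and 3930402G23Rik before Col4a1 and E230013L22Rik after Col4a2. The long noncoding RNA genes Gm15418, Gm32709 and Gm46030 overlapped the pair there. Peaks were not placed against any of these, since their mm9 positions were not used here.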

How the data were processed

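Ebf1 peaks came from 1 library. The submitters' processing notes name mm9 as the build and SAMtools as a tool. Which aligner and peak caller were used, and how the extract entered the calling, is not given in the sources used here. Read depth is unknown. The deposited score and the second deposited score (the second value) were used as given. Peak positions are 1-based with both ends included. Peaks were kept by centre, split by the gene ends of the rule, and joined where centres lay within 12.5 kb. All 4 gene ends equal those of the GRCm38 table to the nearest kb, and no mm9 annotation was used to check that they hold in mm9. Equal windows covered each chromosome from its first to its last peak, on a grid in register with the window described here. Strong peaks, shares and standings were described without tests. Every strong peak was named, while some of the other peaks were given singly and the rest by range and count. Of 24 basement membrane genes listed for comparison, 16 had a RefSeq promoter, under 80%, so a motif check over that list is void and no counts are given. The window, members and lists were chosen with earlier results of these data known. Counting of windows and clusters was tested on simulated data. Scripts ran in Python 3.11.15 with pandas 2.3.3, numpy 2.4.6 and scipy 1.17.1, and plots were made with matplotlib 3.10.9.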

Additional observations from a re-analysis of the deposited data

How the results depend on the processing

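Of 19 alternative values, 9 stayed within 1.5 times the count, or within the exact 95% interval of the share, and 10 moved. The window held 23 peaks at or above the median score and 7 at or above the 90th percentile, fewer by construction. With the 95th percentile of score as the threshold 3 peaks were strong, and with the 75th percentile 15 were. At or above the median score, Col4a1 held 65.2% of the peaks and Col4a2 30.4%, against 48.8% each for all peaks, and the cause was not tested. The largest cluster held 7 peaks at a joining distance of 5 kb and 25 at 25 kb, against 24. As many peaks were held by 0.128% of all windows and by 0.512% of windows on chromosome 8, and as high a summed score by 0.0512% of all windows. CCCNNGGG occurred in 13.7% of promoters against 0.904% for the longer motif. Moving the shared start by 1 kb was chosen after seeing the data. The planned search for motifs in peaks and the comparison of the collagen proteins were not run, since neither mm9 nor protein sequence was used here. With 1 library there was no replicate to leave out. No paired analysis was possible because only the Ebf1 library had values to use. Without a known depth, weak peaks of the window cannot be told from chance calls.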
